A study of Homo sapiens with 4 samples.

Results

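RNA-seq levels of K562 cells exposed for 48 h to R-Exo vesicles were compared here with those of K562 cells exposed for 48 h to S-Exo vesicles. The compared genes were the rows with an Ensembl gene identifier and at least 1 FPKM (fragments scaled to gene model length and library size) in 1 or both of these libraries. This gave 1517 of the 2288 rows with such an identifier and of the 3200 rows in all. K562, an established human cell line, derives from chronic myeloid leukaemia and depends on the fusion kinase BCR-ABL, which the drug imatinib inhibits. The series had 4 libraries, 1 for each group. The parental library came from K562 cells of wild-type label with no vesicles. The resistant library came from K562/IMR cells, an imatinib-resistant derivative, also without vesicles. The R-Exo and S-Exo libraries carry the titles K562 + R-Exo and K562 + S-Exo, and the design text calls S-Exo the control and names vesicles of resistant cells in the title of the series. S-Exo was read as vesicles of sensitive cells. Not given in the sources used here were the vesicle dose and the number of clones behind the resistant line.

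Exosomes are small membrane vesicles that cells release and that can carry proteins and RNA into other cells. Resistance to imatinib is known to arise from mutation or amplification of BCR-ABL, from other kinases that keep signalling when BCR-ABL is blocked, and from drug efflux by pumps such as P-glycoprotein. K562 cells have features of early red cell and megakaryocyte precursors, so globin and platelet genes are part of their usual programme.

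With 1 library in each group, the values below are sizes with no replicate error and no test. The depth of the libraries is unknown. The deposited table is named as one of differentially expressed genes, and how the authors chose them was not recorded in the labels. Among compared genes, only 19 of 1517 (1.25%) had a log2 difference between R-Exo and S-Exo smaller than 0.1 in size, so the table holds few genes with like levels. Shares and medians describe this selection and not the transcriptome. The FPKM of the compared genes summed to 20899 in the R-Exo library and 19321 in the S-Exo library. Of the fixed cell type markers, 4 of 11 erythroid ones were in the table and summed to 1519 FPKM in R-Exo against 780 in S-Exo. Of the T cell markers 1 of 6, CD3D, could be analysed here, and of the endothelial ones 0 of 4.

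The library labelled R-Exo lay close to the resistant library, which bears on each difference below. Over the 1517 genes, the median absolute log2 difference was 0.177 between R-Exo and resistant and 0.125 between S-Exo and parental, against 0.951 between R-Exo and S-Exo. The limit used throughout was an absolute log2 difference of at least 1 on FPKM + 1. It was passed by 35 of the 1517 genes (2.31%) between R-Exo and resistant, and by 40 (3.03%) of the 1320 genes with at least 1 FPKM in either of those libraries. Between S-Exo and parental 35 of the 1517 (2.31%) passed it, and 40 (3.15%) of 1269. Among 115 genes that differed by at least 2 log2 units between the lines and reached 5 FPKM in one of them, the R-Exo level lay at a median of 98.6% of the way from parental to resistant. This median was 88.5% for the 70 genes higher in resistant and 100% for the 45 lower in resistant. The S-Exo level of the 115 genes lay at a median of 0.274% of that way. It was nearer to parental in 113 of the 115, all but a MATR3 model (82.8%) and BSCL2 (64.8%). Only 4 of the 115 genes were nearer to parental in R-Exo, namely INO80B-WBP1 and the clone-based models AL121594.1, AC118553.2 and AL031281.2. Whether R-Exo cells took on the expression of the resistant line, or the library labelled R-Exo holds RNA of resistant-line cells, cannot be told apart in this design, which holds 1 library for each label.

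Of the 1517 compared genes, 331 (21.8%) were higher in R-Exo and 352 (23.2%) were lower, so 683 (45.0%) passed the limit in either direction. The median difference was -0.09. Of the genes past the limit, 48.5% were higher as deposited, and 58.7% were higher when the median difference was set to 0 (395 higher and 278 lower). The counts are sensitive to this small shift because 149 genes lay between 0.9 and 1 in absolute difference and 134 between 1 and 1.1. At least 1 FPKM was reached by 910 genes in both libraries, by 308 in R-Exo alone and by 299 in S-Exo alone. The nearest genes inside the level limit were ZNF554 (R-Exo 1.00 FPKM and S-Exo 0.667) and IGIP (1.00 and 0.983). The nearest outside were PAQR6 (0.997 and 0.314) and FPR3 (0.470 and 0.996). EPB41L2 (37.7 in R-Exo and 18.4 in S-Exo) was the gene just past the higher limit and TARSL2 (6.63 and 2.82) the one just short of it. At the lower limit these were MMP23B (0.345 and 1.69) and JRKL (8.85 and 18.7). The share past the limit was greater among genes of high level. It was 13.1% higher and 9.32% lower among the 397 genes whose larger level was 1 to 2 FPKM. Among the 42 genes of at least 100 FPKM it was 38.1% and 40.5%. Adding 1 to each FPKM caps the difference that genes of low level can reach, so this trend is at least partly set by the measure.

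**Figure D1:**
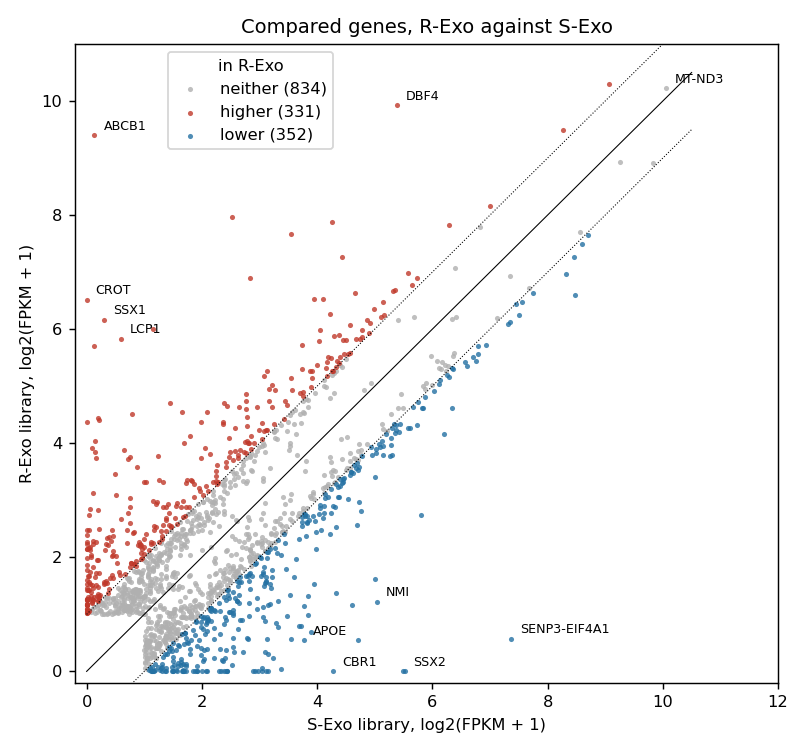
Levels of the 1517 compared genes as log2(FPKM + 1), with the S-Exo library on the horizontal axis and the R-Exo library on the vertical axis, 1 point per gene. The solid line marks equal levels and the dotted lines a log2 difference of 1; 331 genes lie past the upper line (red) and 352 past the lower one (blue), and few lie near equality because the table holds selected genes.

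The most different gene was a drug efflux gene. ABCB1, which encodes the P-glycoprotein pump, reached 677 FPKM in R-Exo against 0.0985 in S-Exo, beside 778 in resistant and 0.222 in parental. Its log2 difference of 9.27 was the largest of the 1517. ABCB4, the adjacent paralog that encodes a phospholipid pump of bile, had 2.66 FPKM in R-Exo and was listed at 0 in S-Exo and in parental, with 2.76 in resistant. ABCB1 and ABCB4 were the only 2 compared members of the drug transporter list, and both can share reads. R-Exo and resistant were high and S-Exo and parental low for both genes.

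The genes on both sides of ABCB1 on chromosome 7 went the same way. This stretch was singled out after its values were seen. Among compared genes in chromosomal order, 30 consecutive ones from KIAA1324L to PON2 all passed the higher limit. CROT, a peroxisomal carnitine acyltransferase gene that ends beside ABCB4, had 90.3 FPKM in R-Exo and 111 in resistant, and was listed at 0 in S-Exo and parental. KIAA1324L had 249 FPKM in R-Exo against 4.77 in S-Exo, and TMEM243 had 63.0 against 1.21. DMTF1, a transcription factor gene that acts on the ARF and p53 pathway, had 233 against 18.3. DBF4, whose product activates the CDC7 kinase at replication origins, reached 975 FPKM in R-Exo, the next highest level after those of HBZ and MT-ND3, against 40.7 in S-Exo. SRI, which encodes the calcium-binding protein sorcin, had 153 against 20.6, a log2 difference of 2.83. CDK6, a G1 cyclin-dependent kinase gene farther along the stretch, had 35.3 against 7.44. HEPACAM2 had 12.2 against 0.641, and RUNDC3B (1.09 against 0.0326) was just past the limit. R-Exo held between 63.2% (RUNDC3B) and 120% (KIAA1324L) of the resistant level of these genes. On the other side the pattern turned over. The 34 compared genes from ETV1 to SEMA3A, which come just before KIAA1324L in order, all had a lower level in R-Exo, among them CD36 (9.60 against 31.2), a fatty acid receptor gene.

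The start-site windows of ABCB1 and CROT are shown because these genes of the same stretch had the 2 largest differences between R-Exo and S-Exo. The windows run from 250 bases before to 50 after the annotated start, from RefSeq on GRCh38.p14. That of ABCB1 is chr7:87600835-87601134 on the minus strand, 1 of 2 that the table holds for the gene. Capitals mark ATTGG or its reverse complement CCAAT, the core of a common promoter element, of which it holds 2 copies; 34.6% of 35116 such windows of all genes hold at least 1 on either strand. That of CROT is chr7:87345414-87345713 on the plus strand, with each CG pair in capitals. It holds 28 of them, at the upper quartile of all windows (28, with a median of 14), and the ABCB1 window holds 16.
ABCB1: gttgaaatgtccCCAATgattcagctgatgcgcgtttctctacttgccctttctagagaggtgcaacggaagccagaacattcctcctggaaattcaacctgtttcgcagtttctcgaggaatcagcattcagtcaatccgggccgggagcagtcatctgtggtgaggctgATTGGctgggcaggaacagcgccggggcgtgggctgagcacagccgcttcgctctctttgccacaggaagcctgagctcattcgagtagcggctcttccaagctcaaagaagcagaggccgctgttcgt
CROT: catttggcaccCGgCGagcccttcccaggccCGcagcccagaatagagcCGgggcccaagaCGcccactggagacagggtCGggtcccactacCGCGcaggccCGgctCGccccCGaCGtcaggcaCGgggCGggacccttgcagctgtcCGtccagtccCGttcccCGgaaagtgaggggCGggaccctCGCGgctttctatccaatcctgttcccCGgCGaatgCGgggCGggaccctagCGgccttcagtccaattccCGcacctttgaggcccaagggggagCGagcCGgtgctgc

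Redox and drug metabolism genes were mostly lower in R-Exo, with 8 of 14 compared members lower and 3 higher (median -1.08). The background for this and each later gene list is 21.8% higher and 23.2% lower over all compared genes. CBR1, a carbonyl reductase that reduces quinones and anthracycline drugs, was listed at 0 in R-Exo and in resistant and had 18.4 FPKM in both S-Exo and parental. ALDH1A1, a retinal-oxidizing aldehyde dehydrogenase used as a stem cell marker, had 1.24 FPKM in R-Exo against 23.3 in S-Exo. SELENOP, a plasma selenium carrier gene, had 2.09 against 31.1. The ketosteroid reductase genes AKR1C1 (6.80 against 25.4) and AKR1C2 (5.24 against 14.5) are near-identical and share reads. PRDX2, the abundant peroxiredoxin of red cells, had 178 against 388. The higher members were EPHX2, which encodes soluble epoxide hydrolase (21.1 against 5.91), CYP3A5, a drug-oxidizing cytochrome (4.87 against 1.25), and MGST1, a microsomal glutathione transferase gene (75.3 against 34.7). In all of these R-Exo was on the side of resistant and S-Exo on the side of parental. The window at the start of CBR1 (chr21:36069774-36070073, plus strand) is shown as that of the gene with the highest S-Exo level among single-copy genes listed at 0 in R-Exo. It holds 27 CG pairs, in capitals, which is close to the count in CROT, the gene with the reverse pattern.
CBR1: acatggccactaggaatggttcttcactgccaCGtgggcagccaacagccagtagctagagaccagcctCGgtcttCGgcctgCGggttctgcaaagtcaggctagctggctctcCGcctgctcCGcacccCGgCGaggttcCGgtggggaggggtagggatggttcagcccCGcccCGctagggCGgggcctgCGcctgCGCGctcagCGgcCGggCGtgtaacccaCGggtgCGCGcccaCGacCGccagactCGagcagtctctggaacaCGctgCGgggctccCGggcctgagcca

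**Figure D2:**
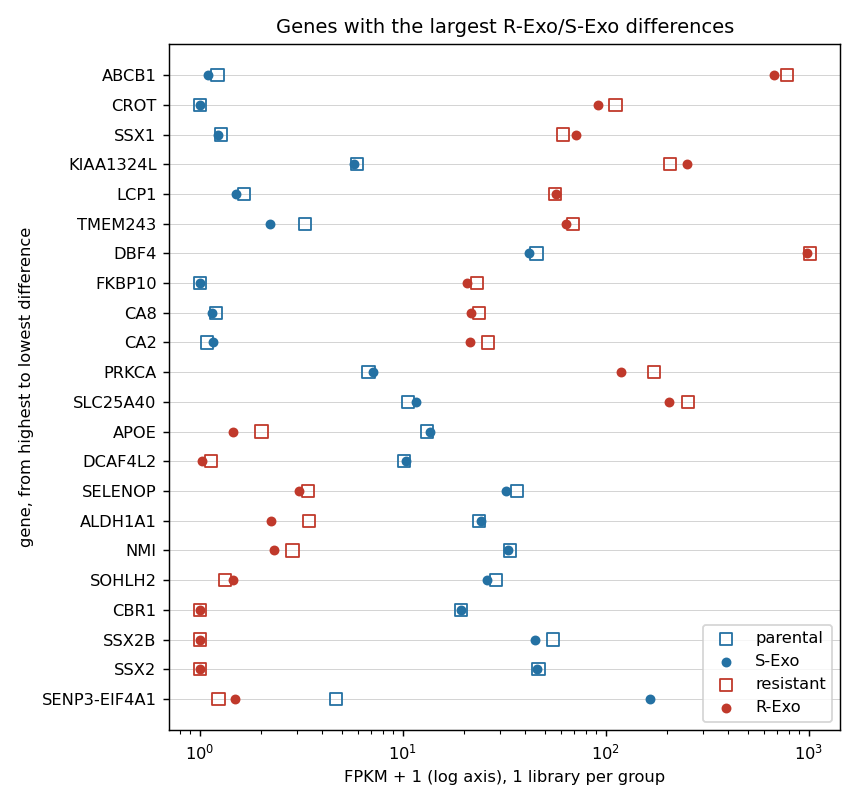
FPKM + 1 on a log axis for 12 genes among the highest and 10 among the lowest R-Exo/S-Exo differences, 1 row per gene and 1 point per library. For each gene except SENP3-EIF4A1 the R-Exo point lies beside the resistant square and the S-Exo point beside the parental square; SENP3-EIF4A1 stands at 165 FPKM in S-Exo and under 4 in the other libraries.

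Among BCR-ABL signalling kinases and adaptors, 4 of 13 compared members were higher and 4 lower, with a median of 0.57. PRKCA, which encodes protein kinase C alpha, had 118 FPKM in R-Exo and 172 in resistant against 6.13 in S-Exo and 5.79 in parental. JAK1, a cytokine receptor kinase gene, had 30.8 in R-Exo against 13.9 in S-Exo, and GAB1, an adaptor for receptor kinases, had 4.99 against 1.97. SYK, a non-receptor tyrosine kinase gene of blood cells, was listed at 0 in R-Exo and had 4.33 FPKM in S-Exo. PRKCH, another protein kinase C gene, was also listed at 0 in R-Exo, with 1.82 in S-Exo. YES1, a SRC family kinase gene, had 12.8 against 29.9, and KIT, the stem cell factor receptor gene, had 0.276 against 1.80. Of 7 phosphatases and signalling inhibitors, PTPRF (9.25 against 2.33) and the phosphoinositide phosphatase gene INPP4B (1.41 against 0.0272) were higher. PIM1, a STAT5-induced survival kinase gene kept in that list, was lower (41.9 against 93.6). FOS, an AP-1 subunit gene, was the 1 higher member of 8 immediate early and ERK target genes (6.76 against 1.97), and PHLDA1 the 1 lower member (0.655 against 2.60).

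Erythroid, globin and heme genes had 10 of 17 compared members higher and 3 lower, a median of 1.23. CA2 and CA1, carbonic anhydrases of red cells, had 20.3 FPKM against 0.160 and 98.6 against 24.2. HBZ, the embryonic zeta-globin gene, was the highest of all genes in R-Exo at 1253 FPKM, against 533 in S-Exo. EPB42, a protein of the red cell membrane skeleton, had 3.62 against 0.300. LMO2, a bridging factor of the erythroid GATA1 and TAL1 complex, had 29.7 against 10.8. The members lower in R-Exo included SLC40A1, the iron exporter ferroportin (6.36 against 18.9), and TFRC, the transferrin receptor, which was among the fixed erythroid markers (98.6 against 214). These iron export and iron uptake genes went the other way from the globin and glycophorin genes of the list. GYPB and GYPE, which encode glycophorins of the red cell surface, had 91.7 against 16.2 and 51.6 against 12.3. Their start windows (chr4:144019296-144019595 and chr4:143905510-143905809, both minus strand) are shown because the genes are copies of each other. That of GYPB is 1 of 2 annotated for the gene. The windows were identical at 287 of 294 aligned positions (97.6%). Most of each window lies before the start, so this does not measure how alike the transcripts are. Whether reads of the 2 genes were split between them was not tested. Capitals mark AGATAA, letters that erythroid factors of the GATA family bind, which occur once in each window and, searched on both strands, in 10.3% of all windows.
GYPB: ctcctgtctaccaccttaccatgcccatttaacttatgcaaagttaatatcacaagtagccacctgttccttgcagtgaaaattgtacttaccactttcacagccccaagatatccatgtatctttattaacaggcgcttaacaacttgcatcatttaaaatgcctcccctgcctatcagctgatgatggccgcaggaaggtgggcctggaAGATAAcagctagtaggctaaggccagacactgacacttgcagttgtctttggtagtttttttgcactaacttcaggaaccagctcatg
GYPE: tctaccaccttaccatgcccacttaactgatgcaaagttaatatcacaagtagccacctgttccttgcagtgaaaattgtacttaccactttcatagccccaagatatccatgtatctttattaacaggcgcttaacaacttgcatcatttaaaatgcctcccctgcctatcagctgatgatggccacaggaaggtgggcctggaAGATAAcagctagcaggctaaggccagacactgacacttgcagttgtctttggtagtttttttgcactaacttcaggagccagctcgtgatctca

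Lymphoid and myeloid lineage genes had 6 of 7 compared members higher and 0 lower, with a median of 1.84. LCP1, the actin-bundling L-plastin of white cells, had 56.0 FPKM in R-Exo against 0.510 in S-Exo. LEF1, a transcription factor of the Wnt pathway in lymphocytes, had 12.4 against 0.115. CD3D, a T cell receptor subunit, had 7.27 against 0.677, and the other 5 T cell markers were not analysed here. The sialic acid receptors CD33 and CD22 had 5.08 against 0.693 and 4.56 against 0.626. MS4A3, a gene of basophil and granulocyte precursors, had 70.7 against 28.3. Each of these 6 was high in the resistant line too. PRG2 was the remaining member (0.682 against 1.30). Of 8 megakaryocyte and platelet genes, 3 were higher and 2 lower. ITGA2B, the platelet fibrinogen receptor subunit, had 16.4 against 2.45 and GP6, the platelet collagen receptor, had 19.1 against 4.18, while GP1BB had 0.595 against 2.25.

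Genes of vesicle biogenesis and cargo are of interest in cells given vesicles, and 5 of 8 compared members were lower in R-Exo and 2 higher (median -1.33). SYTL4, a RAB27 effector that docks secretory vesicles, had 0.232 FPKM in R-Exo against 7.90 in S-Exo. SDC2, a heparan sulfate proteoglycan that enters exosome formation through syntenin, was listed at 0 in R-Exo and had 2.68 in S-Exo. The tetraspanin genes CD53 and CD9 had 23.7 against 79.6 and 0.336 against 2.94, and the endosomal GTPase gene RAB31 had 14.8 against 32.8. MFGE8, a phosphatidylserine-binding exosome protein, had 43.8 against 18.0, and the tetraspanin gene TSPAN9 had 1.51 against 0.166. In all 8 members of the list, S-Exo was within a log2 difference of 1 of parental, and R-Exo was within 1 of resistant. The list median between resistant and parental was -1.27, beside -1.33 between R-Exo and S-Exo.

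Cancer-testis antigen genes, mostly X-linked and normally silent outside the germ line, had 13 of 23 compared members higher and 6 lower (median 1.10). SSX1 had 70.7 FPKM in R-Exo against 0.232 in S-Exo, while SSX2 and SSX2B were listed at 0 in R-Exo and had 44.8 and 44.0 in S-Exo. These SSX genes are close paralogs, and the split of reads between SSX2 and SSX2B is uncertain. The melanoma antigen genes MAGEA1, MAGEB16 and MAGEC2 had 22.0 against 0.721, 25.8 against 5.77 and 58.2 against 18.7. SOHLH2, a germ cell transcription factor, had 0.466 against 25.0, and NLRP2, a gene of the oocyte and early embryo, was listed at 0 against 6.59. The list therefore held members that were nearly off in 1 of the 2 libraries on both sides.

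Cell death genes had 4 of 8 compared members lower in R-Exo and 1 higher (median -1.09). The death receptor gene FAS was listed at 0 in R-Exo and had 1.98 FPKM in S-Exo. CASP4, an inflammatory caspase, had 1.92 against 7.50, and MLKL, the effector of necroptosis, had 0.116 against 2.09. BIRC3, an inhibitor of apoptosis that acts in NF-kB signalling, had 0.0475 against 1.45. Interferon-stimulated genes had 8 of 24 members lower and 4 higher (median -0.76). NMI had 1.33 against 31.9, and UBE2L6, the ISG15-conjugating enzyme, had 0.745 against 11.8. ISG15 itself had 4.86 against 12.4, and IFITM3, which restricts virus entry, had 39.7 against 96.2. The DNA sensor gene IFI16 (1.94 against 0.274) and the restriction factor gene TRIM5 (12.1 against 4.79) were among the higher. Cytokine, receptor and NF-kB genes were divided, with 7 of 22 higher and 7 lower. EREG, an EGF receptor ligand, was listed at 0 in R-Exo against 7.85, and IL15RA had 0.478 against 7.73. TNFAIP3, which encodes the NF-kB inhibitor A20, had 6.64 against 1.65, and LIFR, a receptor chain of the IL-6 family, had 2.10 against 0.369. Of 7 antigen presentation and NK ligand genes, the immunoproteasome gene PSMB9 was lower (listed at 0 against 1.48) and 0 were higher. With the median difference set to 0, 1 was higher and 1 lower.

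Metabolic and stress lists were mixed in direction. Amino acid response genes had 4 of 6 members lower, with the serine synthesis genes PHGDH (6.04 FPKM against 26.1) and PSAT1 (18.2 against 46.6) and the mTOR inhibitor gene DDIT4 (10.6 against 25.3). GDF15, a stress-induced hormone gene, was the 1 higher member (56.1 against 24.6). Heat shock and chaperone genes had 3 of 6 higher and 0 lower. These were FKBP10, a collagen chaperone (19.7, listed at 0 in S-Exo), SERPINH1 (80.9 against 30.5) and HSPA1A (285 against 127). HSPA1B, a near-identical copy of HSPA1A, had 220 against 112 and fell just short of the limit. Of 16 cholesterol and fatty acid genes 6 were higher and 4 lower. Besides CROT, the sterol genes CYP51A1 (58.4 against 19.9), FDFT1 (109 against 49.1) and NPC2 (25.6 against 7.92) were higher. APOE, the lipoprotein ligand gene, had 0.459 against 12.6, and the acyl-CoA synthetase gene ACSL1 had 3.25 against 7.88. Of 7 glycolysis and hypoxia genes, PKLR, the pyruvate kinase of red cells, was lower (16.1 against 37.8), as was DDIT4, and 0 were higher. With the median difference set to 0, 1 of the glycolysis and hypoxia genes was higher and 2 lower. Autophagy and lysosome genes had 3 of 8 higher, among them WIPI1 (13.4 against 4.64) and GABARAPL1 (11.7 against 4.37). LAPTM5, a lysosomal membrane protein of blood cells, was the 1 lower member, at 95.4 against 355.

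Zinc finger and histone genes went in opposite directions. Zinc finger genes of the ZNF series, many of which are KRAB-type repressors, had 37 of 83 compared members lower and 2 higher, a median of -0.91. Of these, 59 lie on chromosome 19, with 30 lower and 1 higher, and 24 lie elsewhere, with 7 lower and 1 higher. ZNF93, a repressor of LINE-1 elements, had 0.742 FPKM against 12.2, and ZNF91, a repressor of SVA elements, had 0.927 against 7.35. ZNF215 (12.7 against 1.36) was the most different of the 2 higher members. Of 20 compared histone genes 8 were higher and 0 lower (median 0.86), with HIST2H2BE at 73.3 against 33.4. Many histone genes are near-identical, and replication-dependent histone transcripts mostly lack the poly-A tail on which these libraries were selected. Among 9 chromatin regulators, PRDM9, the meiotic recombination methyltransferase, was higher (22.4 against 2.17), and HDAC9 (0.803 against 8.72) and the polycomb gene EED (18.9 against 52.4) were lower. Homeobox and developmental factor genes had 5 of 16 (31.2%) higher and 4 (25%) lower, beside 21.8% and 23.2% over all compared genes. TBX1 was listed at 0 in R-Exo against 7.61, PAX6 had 0.0880 against 2.29, and MEIS3 had 3.72 against 0.268.

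Matrix and adhesion genes had 7 of 19 lower and 4 higher. The smooth muscle actin gene ACTA2 was listed at 0 in R-Exo against 4.42 FPKM, S100A4 had 2.91 against 11.4, and SPARC had 23.2 against 5.77. Of 11 Wnt, TGF-beta and Notch genes 3 (27.3%) were higher and 2 (18.2%) lower, near the 21.8% and 23.2% over all compared genes. The Wnt receptor genes FZD1 and FZD4 had 2.81 against 0.808 and 1.20 against 7.39. Solute carrier genes had 10 of 32 (31.2%) lower and 5 (15.6%) higher. SLC25A40, a mitochondrial glutathione carrier gene in the ABCB1 stretch, had 203 against 10.7, and SLC27A2, a fatty acid transporter gene, had 1.59 against 19.0. Cell cycle genes had 3 of 8 lower and 2 higher as deposited, and 1 lower and 3 higher re-scaled. DBF4 and CDK6 were the higher ones, and SKP2 (12.7 against 37.3) and RB1 (11.3 against 23.9) were lower. Of 8 ribosomal protein genes, RPL35A was lower (199 against 417), as was the readthrough model RPL17-C18orf32 (listed at 0 against 7.29), and 0 were higher. Re-scaled, 1 ribosomal protein gene was higher and 1 lower. CD44, a hyaluronan receptor gene in the list of 5 stem and progenitor genes, was higher (6.97 against 1.22), and ALDH1A1 and KIT of that list were lower. MRE11 (7.29 against 17.3) was the 1 DNA repair gene of 3 past the limit as deposited, and re-scaled 1 was higher and 1 lower. MT-ND3, a mitochondrially encoded complex I subunit, had 1196 in R-Exo and 1060 in S-Exo. Its R-Exo level was above resistant (579) by 1.05 log2 units, past the limit.

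**Figure D3:**
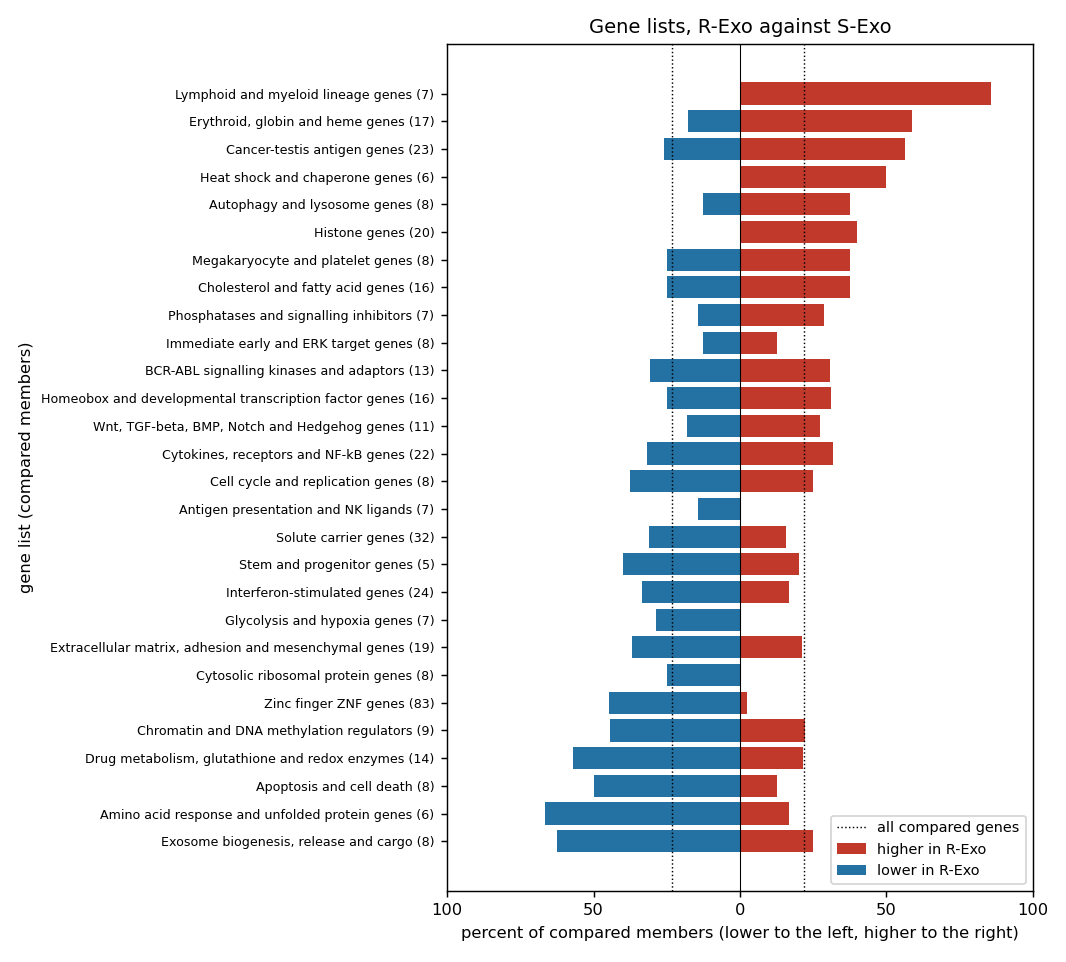
Share of compared members of each gene list that were higher (red, to the right) or lower (blue, to the left) in R-Exo than in S-Exo, for reported lists with at least 5 compared members, ordered by median difference. Dotted lines mark the shares over all compared genes (21.8% higher and 23.2% lower); lymphoid and myeloid genes reach 85.7% higher and amino acid response genes 66.7% lower, with few members in each list.

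The R-Exo/S-Exo differences were set beside the resistant/parental differences, with which they share no library. The design asks whether vesicles of resistant cells move K562 cells toward the resistant state. Of the 331 genes higher in R-Exo, 275 (83.1%) were also higher in resistant than in parental, which is 68.2% of the 403 compared genes higher in resistant. Of the 352 lower genes, 216 (61.4%) were lower in resistant, which is 72.0% of 300. Between the lines, 27.8% of 1509 genes with at least 1 FPKM in either were higher in resistant and 20.6% lower. Across the 1517 genes Pearson's r of the 2 differences was 0.930; genes are not independent replicates, and they were selected for differing. Of the 683 genes past the limit, 664 had the same sign in both. Only 2 genes passed the limits in opposite directions. BEST1, a chloride channel gene, had 12.3 FPKM in R-Exo and 8.37 in parental, against 2.94 in S-Exo and 2.35 in resistant. AC118553.2 had 0.0171 in R-Exo, 1.92 in S-Exo, 6.15 in resistant and 0.423 in parental.

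**Figure D4:**
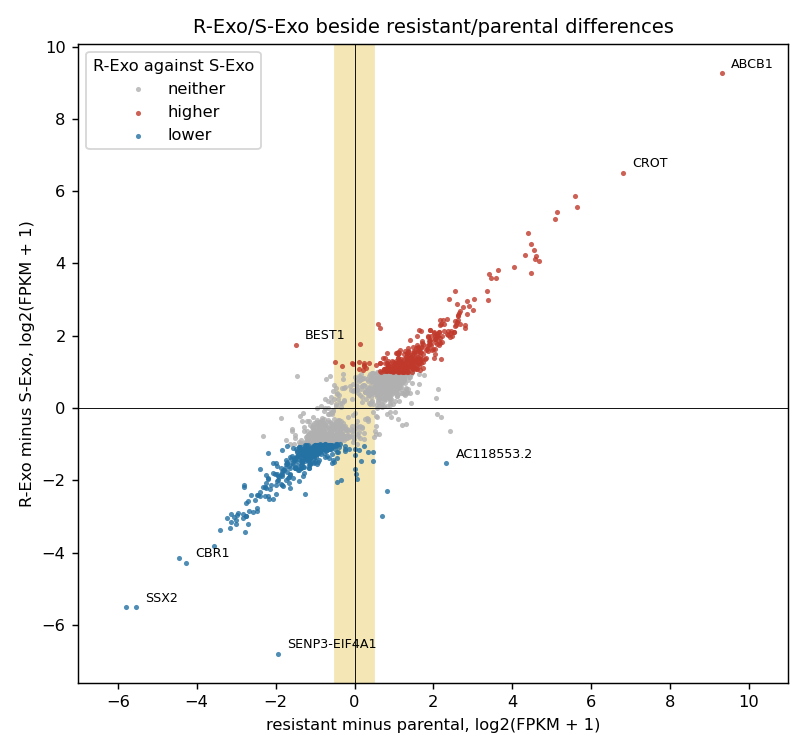
Difference between R-Exo and S-Exo (vertical) against the difference between resistant and parental (horizontal) for the 1517 compared genes, both as log2(FPKM + 1). Points follow the rising diagonal, BEST1 and AC118553.2 lie in the opposite quadrants, and the shaded band marks a resistant/parental difference under 0.5 in size, where 41 genes pass the limit on the vertical axis.

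Genes that were on in 1 line and off in the other gave the clearest values. With on set at 5 FPKM and off at 0.1, 9 genes were parental-only, and each of the 9 was listed at 0 in R-Exo. They were SSX2B, SSX2, CBR1, RPL17-C18orf32, EREG, NLRP2, TBX1, SYK and a zinc finger gene. In S-Exo the same 9 had between 81.3% and 107% of their parental level. Under wider limits (1 FPKM and 0.1), 67 genes were parental-only, and 64 of them had under 0.5 FPKM in R-Exo, with a median of 0.489% of the parental level. In the reverse direction 10 genes were resistant-only, with R-Exo at a median of 84.9% of resistant and S-Exo at 0.378%. CROT stood at 81.5% of its resistant level, FKBP10 at 88.3%, CA2 at 80.7% and TKTL1, a transketolase-like gene, at 101%. INO80B-WBP1, a readthrough model with 6.79 FPKM in resistant, was the exception and was listed at 0 in R-Exo. The gene INO80B of that joined symbol had 10.4 FPKM in R-Exo and 2.28 in resistant, with 12.8 in S-Exo and 10.9 in parental. How reads were divided between these models was not tested. Of 35 genes listed at 0 in resistant with at least 1 FPKM in parental, 25 were also listed at 0 in R-Exo and 0 in the S-Exo library. The highest R-Exo level among the 35 was 2.79 FPKM, that of OVCA2, and the highest S-Exo level was 44.8, that of SSX2.

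Some genes passed the limit between R-Exo and S-Exo but differed little between the lines. Of 238 compared genes with a resistant/parental difference under 0.5 in size, 13 were higher in R-Exo and 28 lower, 41 in all. Both shares were below those over all 1517 compared genes, of which 331 (21.8%) were higher and 352 (23.2%) lower. In 10 of the 41, R-Exo but not S-Exo lay past the limit from its line, in 8 S-Exo but not R-Exo did, in 1 both did, and in 22 neither did. Of the 41, 6 were readthrough models with joined symbols and 10 had clone-based symbols. Overlap of these models with other genes was not counted. Among the 39 genes that reached 5 FPKM, 3 were higher and 11 lower. The 3 higher ones were SENP3, a SUMO protease gene, EIF4A1, an RNA helicase of translation initiation, and CSAG3, a cancer-testis gene. SENP3 had 29.8 FPKM in R-Exo, 30.7 in resistant, 27.9 in parental and 8.02 in S-Exo. EIF4A1 had 716, 648, 663 and 308 in the same order. Both overlap the readthrough model SENP3-EIF4A1, which had 165 FPKM in S-Exo and 0.489 in R-Exo, 0.237 in resistant and 3.71 in parental, so S-Exo was the library apart in all 3 models. How the authors divided reads among these models was not recorded in the labels. TOMM6, a subunit of the mitochondrial import channel, had 51.8 in R-Exo and 121 in S-Exo, both above resistant (18.0) and parental (12.6). ANKHD1-EIF4EBP3, a readthrough model, had 5.60 in R-Exo against 14.2 to 21.5 in the other 3. The gene ANKHD1 of that joined symbol went the other way, with 23.7 in R-Exo, 13.3 in S-Exo, 14.7 in parental and 8.55 in resistant. Whether reads were divided otherwise between the 2 models was not tested. GAGE1, a member of a family of near-identical genes, had 27.0 in R-Exo against 47.4 to 57.4 in the others. VPS9D1 (2.75 against 6.69), FNDC3A (4.33 against 9.74) and ZNF260 (2.96 against 7.71) were lower in R-Exo than in S-Exo, with R-Exo the lowest of the 4 libraries. The resistant/parental log2 difference had the same sign but was smaller in VPS9D1 (-0.500), FNDC3A (-0.440) and ZNF260 (-0.232).

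Genes past the limit were unevenly spread over chromosomes, which were assigned by identifier from GENCODE release 29. The chromosomes described were picked after their values were seen. Over all compared genes 21.8% were higher and 23.2% lower. On chromosome 13, 25 of 57 compared genes were lower and 2, LCP1 and ITGBL1, higher. R-Exo was below S-Exo in 53 of the 57, with a median of -0.99, and RB1, a tumour suppressor gene, and SOHLH2 were among the lower. On chromosome 19, 53 of 151 were lower and 14 higher, and on chromosome 10, 17 of 47 were lower and 3 higher. Chromosome X had 28 of 66 higher and 9 lower, chromosome 7 had 46 of 115 higher and 21 lower, and chromosome 17 had 24 of 76 higher and 8 lower. On chromosome 14, 29 consecutive compared genes from SIPA1L1 to WDR20 were all above S-Exo. On chromosome 22, 5 of 18 (27.8%) were lower, near the share over all compared genes, and 0 were higher. The copy number of these regions in the 4 libraries was not analysed here.

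**Figure D5:**
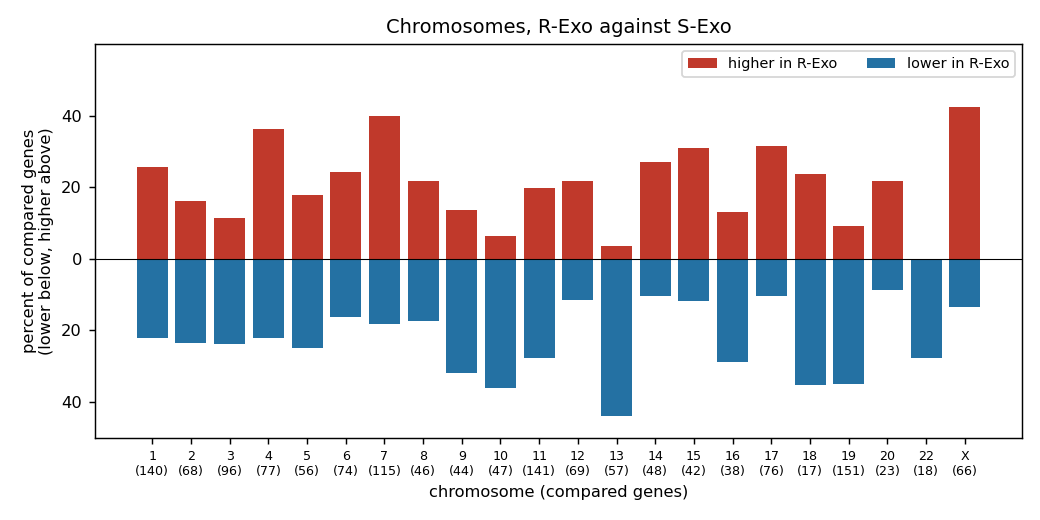
Percent of compared genes on each chromosome that were higher (red, above 0) or lower (blue, below 0) in R-Exo than in S-Exo, for chromosomes with at least 15 compared genes; the number compared is in parentheses. Chromosome 13 has 3.51% higher and 43.9% lower, and chromosome X 42.4% higher and 13.6% lower.

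Nearly complete on and off states between R-Exo and S-Exo were found in 38 genes, taken as at least 5 FPKM in 1 library and at most 0.5 in the other. In 17 of them R-Exo was on. Besides genes described above these included SH3GL3, an endophilin gene (14.1 FPKM against 0.0643), MS4A4A, a macrophage membrane gene (7.77 against 0.0789), and FERMT2, the integrin activator kindlin-2 (9.97 against 0.412). In 21 of them S-Exo was on. IQGAP2, a scaffold of the actin cytoskeleton, had 0.170 in R-Exo against 8.40 in S-Exo. ENPP3, an ectonucleotide phosphatase known as a basophil marker, had 0.479 against 10.7, and TMPRSS15, the gut protease enteropeptidase, had 0.265 against 7.57. Each of these 6 genes had a resistant level on the R-Exo side and a parental level on the S-Exo side.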

How the data were processed

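RNA of 4 K562 libraries, 1 per group, was selected on poly-T beads and made into libraries with a NEBNext Ultra kit, per the labels' protocols. FPKM values, 1 column per library, are what the authors deposited, in a table whose name gives the unit. The submitters' processing notes list SAMtools 0.1.18, TopHat2, GATK and Picard and give no step for any of them. Not given in the sources used here are genome build, annotation and counter.

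The table had 3200 rows, and 912 with a running number and no gene name were left out of the main comparison. All 2288 Ensembl identifiers were found in GENCODE release 29 (GRCh38), 2285 of them protein-coding, and gave the chromosomes. Differences are log2 of (FPKM + 1), which understates those of low genes, over genes of at least 1 FPKM in either library. With 1 library per group no p-value or standard error was computed, and the depth is unknown. The calculation was tested on simulated levels. Python 3.11.15, pandas 2.3.3, numpy 2.4.6, matplotlib 3.10.9 and Biopython 1.88 were used.

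The text names genes by a rule. It takes the 15 highest and 15 lowest differences. It takes the 12 highest and 12 lowest among genes with a resistant/parental difference under 0.5 in size. It also takes up to 5 members of each of 32 gene lists, the 8 highest line-only genes in each direction and the 8 highest levels. Other genes named were chosen after their values were seen, as were the chromosomes, gene runs and on and off genes. The members and lists were chosen with earlier results of these data known, so they are no independent support. A gene and a gene list that the rule names are not reported here, and some others it names are covered by counts. RefSeq start windows matched 1184 of the 1517 genes (78.0%) by symbol, under the 80% needed, so a comparison of window content between higher and lower genes is void and none is given.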

Additional observations from a re-analysis of the deposited data

Results flagged for a closer look

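Outside the compared genes, 912 rows carry a running number in place of a gene identifier. They are flagged because a difference appears in rows that the comparison does not use: of 637 with at least 1 FPKM in R-Exo or S-Exo, 168 (26.4%) were higher in R-Exo and 104 (16.3%) lower, with a median of 0.44. The rows are not paired with gene names in the table, and what they represent was not tested.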

How the results depend on the processing

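No paired analysis was possible because each group had 1 library, and for the same reason no replicate could be left out. Counts of 331 higher and 352 lower genes became 506 and 565 with a pseudocount of 0.1, 190 and 210 with a minimum of 5 FPKM, and 499 and 456 with the running-number rows. The other alternatives (no minimum, re-scaling, quantile normalization, the parental library as control, readthrough models left out) kept both counts within 1.5 times, between 328 and 395 higher and between 278 and 363 lower. So did leaving out SENP3, EIF4A1 and SENP3-EIF4A1 (329 and 351), chosen after seeing the data. The median of -0.09 was -0.13 with the small pseudocount, 0.042 with no minimum, -0.49 with a minimum of 5 FPKM, 0 re-scaled, -0.079 after quantile normalization and 0.21 with the running-number rows. The genes past the limit with a line difference under 0.5 in size numbered 41. They became 78, 14 and 65 with the small pseudocount, the higher minimum and the added rows. A lower pseudocount counts low genes and a higher minimum tests fewer, by construction. The R-Exo level of parental-only genes, 0% of parental, was 0.329% with off at 0.5 FPKM and 0.489% with on at 1 FPKM, and that of resistant-only genes, 84.9%, was 86.9% and 85.1%. Members of the gene lists past the limit numbered 250, and 251 re-scaled or 357 with the small pseudocount. Of 186 named genes, 10 lost and 10 gained a call when re-scaled, 5 and 5 after quantile normalization, and 0 and 17 with the small pseudocount; 0 reversed. Low levels are limited by a depth that is unknown.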
